A study of Homo sapiens with 6 samples.

Results

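DHRS9 is a short-chain dehydrogenase that oxidises retinol, the first step from vitamin A to retinoic acid. Its RNA was among those that lay furthest below the control in MCF10DCIS.com breast cancer cells after silencing of WDR5. The genes described here are DHRS9 and 9 further genes of the retinoic acid pathway, DHRS3, RDH10, ALDH1A1, ALDH1A3, CRABP2, RARA, RARB, RARG and CYP26B1, which make 10 of the 26334 genes in the count table. The pathway was chosen by the fall of DHRS9 between shLuc and shWDR5 libraries, so the DHRS9 difference is described below without a test, and counts of changed members are read only as a description. Of the 10 genes, 9 passed the filter on low counts; RARB did not.

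The study silenced WDR5, the WD40-repeat subunit shared by the histone H3 lysine 4 methyltransferase complexes, to ask which genes depend on it in breast cancer cells. Poly-A RNA was sequenced from 3 libraries of cells infected with a vector carrying an shRNA against luciferase (shLuc, the control) and 3 libraries of cells infected with the same vector carrying shRNA against WDR5 (shWDR5). Both vectors express the hairpin from the U6 promoter and carry TagRFP and puromycin resistance; all cells were selected with puromycin at 3 µg/ml and grown in DMEM/F12 with 5% horse serum and 1.05 mM CaCl2. MCF10DCIS.com is 1 established line of the MCF10A lineage that forms lesions resembling ductal carcinoma in situ, so each comparison concerns a single genetic background, and the time between infection and harvest is not given in the sources used here. For its other work on this line the study used WDR5 hairpins in a pool; its RNA-seq methods do not say again whether these libraries hold that pool.

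Retinol taken up by a cell is oxidised to retinaldehyde by retinol dehydrogenases such as RDH10 and DHRS9, and DHRS3 works in the opposite direction. Retinaldehyde dehydrogenases of the ALDH1A family then make retinoic acid irreversibly. CRABP2 carries retinoic acid to the nucleus, where the receptors RARA, RARB and RARG bind DNA with RXR partners, and CYP26 enzymes break retinoic acid down. In stratified and glandular epithelia this pathway is known for restraining squamous differentiation.

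The libraries held 38218108 to 57640167 counts, and between 19263 and 20042 genes had at least 1 count. Levels are given as CPM, each count as a share of the TMM-adjusted library size on the usual CPM scale, and as RPKM, the same per kilobase of gene length, where different genes are set side by side. Libraries of a group correlated at 0.995 or more in log2 CPM and those of different groups at 0.979 or less. Library 1 differed from the others of its group on the second axis of a principal component analysis. It lay at 19.1 in shLuc and 15.1 in shWDR5, and the other libraries lay at -13.0 to -3.27. Nothing in the labels says whether the 3 libraries of a group came from separate infections, so the p-values measure the spread between these libraries.

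Marker genes moved with the groups as well. All 11 markers listed for basal breast epithelium were tested, 8 were called higher and 3 lower at an adjusted p under 0.05. Over all 16117 genes tested, 56.5% were called, 26.6% higher and 29.9% lower, so counts of called markers say little alone. The summed level of the 11 markers was 10597 to 12018 CPM in shLuc and 16673 to 19030 CPM in shWDR5. The largest parts of the sum were ITGB4 (4286 and 6619 CPM on average), LAMB3 (2436 and 3652 CPM) and KRT17 (2159 and 4131 CPM), all called higher. The keratins KRT5 (820 and 1546 CPM on average), KRT6A (67.3 and 239 CPM) and KRT14 (72.1 and 176 CPM) rose as well, as smaller parts of the sum. The 3 lower genes were CDH1, E-cadherin, from 496 to 242 CPM, EPCAM from 283 to 225 CPM and EGFR from 225 to 186 CPM. CDH1 and EPCAM are on this list but mark epithelium in general, not basal cells. Of 5 markers of hormone-responsive luminal cells, 3 were tested and 2 called lower; they summed to 61.9 to 72.3 CPM in shLuc and 47.7 to 54.1 CPM in shWDR5, with PGR and ANKRD30A near 0. Of 6 fibroblast markers, 2 were tested and COL1A1 was called lower; the sum, nearly all COL1A1, was 21.6 to 23.7 CPM in shLuc and 14.9 to 17.8 CPM in shWDR5, with LUM at 0 and COL1A2, COL3A1 and DCN near 0. Of 4 leukocyte markers, CD68 alone was tested and not called (adjusted p = 0.43), CD3E was at 0, and the sum was 10.4 to 13.0 CPM over both groups. The part of these shifts in the retinoid genes was not tested.

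WDR5 itself was measured at 52.6, 48.5 and 51.3 CPM in shLuc libraries 1 to 3 and at 23.4, 24.4 and 20.8 CPM in shWDR5 libraries 1 to 3. The groups did not overlap, and the shWDR5 mean was 55.1% lower (log2 fold change -1.15, SE 0.07; adjusted p = 8.67e-07).

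To show where these genes start, the 250 bases before RefSeq start sites were taken from GRCh38.p14, while the counts were made on hg19. RefSeq windows were matched for 9 of the 10 genes, 19 windows in all. CpG dinucleotides, the sites of promoter methylation and a mark of broadly used promoters, are in capitals in the first 4 sequences, which are shown because they span the range from the CpG-free DHRS9 window to the CpG-dense ALDH1A3 window. The windows lie at chr2:169066827-169067076 (plus strand) for DHRS9, chr9:72953054-72953303 (minus strand) for ALDH1A1, chr1:156705785-156706034 (minus strand) for CRABP2 and chr15:100879581-100879830 (plus strand) for ALDH1A3.
DHRS9: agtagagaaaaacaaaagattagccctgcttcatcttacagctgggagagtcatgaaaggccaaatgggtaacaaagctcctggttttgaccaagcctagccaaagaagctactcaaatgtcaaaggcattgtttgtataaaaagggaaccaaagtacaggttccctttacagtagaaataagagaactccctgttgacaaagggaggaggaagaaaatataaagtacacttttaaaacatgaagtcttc
ALDH1A1: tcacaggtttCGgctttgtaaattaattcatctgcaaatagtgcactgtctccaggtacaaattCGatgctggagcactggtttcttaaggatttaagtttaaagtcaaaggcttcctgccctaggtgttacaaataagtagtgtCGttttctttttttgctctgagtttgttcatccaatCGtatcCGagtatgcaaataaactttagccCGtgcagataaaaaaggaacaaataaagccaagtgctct
CRABP2: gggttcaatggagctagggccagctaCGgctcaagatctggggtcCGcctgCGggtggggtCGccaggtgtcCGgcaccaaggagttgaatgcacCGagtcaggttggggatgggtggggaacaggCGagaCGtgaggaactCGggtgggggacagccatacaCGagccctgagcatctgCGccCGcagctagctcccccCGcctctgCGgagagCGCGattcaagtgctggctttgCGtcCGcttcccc
ALDH1A3: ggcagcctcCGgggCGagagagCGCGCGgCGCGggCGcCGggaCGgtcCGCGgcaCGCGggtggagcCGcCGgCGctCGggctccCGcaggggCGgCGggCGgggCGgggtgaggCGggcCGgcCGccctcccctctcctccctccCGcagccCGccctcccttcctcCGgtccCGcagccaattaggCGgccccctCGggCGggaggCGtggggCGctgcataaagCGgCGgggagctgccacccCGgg

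The fifth sequence is the window before the third of 4 RefSeq starts of RARB, at chr3:25428013-25428262 (plus strand), with a DR5 element in capitals. A DR5 is a pair of half-sites in the same direction with 5 bases between them, the arrangement that RAR and RXR are known to bind. Half-sites were searched on both strands as the consensus AGGTCA and as 3 variants of it. The first variant was AGTTCA, another was GGGTCA and the last was GGTTCA.
RARB: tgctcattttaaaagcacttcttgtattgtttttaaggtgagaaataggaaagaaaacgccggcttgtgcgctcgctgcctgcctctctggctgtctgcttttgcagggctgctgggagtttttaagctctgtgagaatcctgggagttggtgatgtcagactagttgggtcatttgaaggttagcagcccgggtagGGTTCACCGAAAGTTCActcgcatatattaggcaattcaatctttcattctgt

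The DR5 of RARB spans 17 bases and ends 36 bases before the start site. It was the only DR5 among the 19 member windows, and 0.074% of all 35116 RefSeq windows of this length held one. No member window held the same half-sites 1 or 2 bases apart (DR1 in 0.0968% and DR2 in 0.0313% of all windows). A single half-site, which every DR5 contains, was present in 8 of the 19 windows and in 33.8% of all. The letters TATAAA, on either strand, occurred in 4 member windows, those before the first 3 of the 4 DHRS9 starts and the single CYP26B1 start, and in 10.7% of all windows.

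The 4 DHRS9 windows held 0, 2, 1 and 0 CpG, against a median of 11 over all windows. The first and the last were thus as CpG-poor as the lowest 6.06% of windows. ALDH1A1 had 6 CpG, CRABP2 18, CYP26B1 16 and RARG 10 in their single windows, and ALDH1A3 had 38, with 97.3% of all windows holding as few or fewer. DHRS3, RARA and RARB had several starts whose windows ranged from 3 to 26, 11 to 16 and 1 to 28 CpG. The count table does not separate transcripts, so it does not say which start was used.

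DHRS9 lies on chromosome 2 (hg19, 169923545 to 169952677, plus strand), with 2286 exonic bases that no other gene of the table overlaps. It was measured at 676, 502 and 597 counts in shLuc libraries 1 to 3, or 13.7, 12.9 and 14.8 CPM. In shWDR5 libraries 1 to 3 it had 93, 192 and 76 counts, or 2.01, 3.38 and 1.68 CPM. The groups lay far apart, and shWDR5 library 2 held more DHRS9 than either of the others in its group.

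The shLuc mean was 13.8 ± 0.93 CPM (SD, n = 3) and the shWDR5 mean 2.35 ± 0.90 CPM, 5.87 times lower. The fitted log2 fold change was -2.52 (SE 0.19), the 12th lowest of the 16117 genes tested. Without shWDR5 library 2 it was -2.90. In bulk RNA, fewer cells with the transcript and less of it per cell cannot be told apart.

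The 5 genes whose 6 centred log2 CPM values lay closest to those of DHRS9 were P3H3, HPCAL4, MESP1, GCOM1 and TMEM145, at distances of 0.52 to 0.72 log2 units. P3H3, the closest, encodes a collagen prolyl hydroxylase family member and had a fitted log2 fold change of -2.38 (SE 0.22). MESP1, a mesoderm transcription factor, averaged 4.18 and 0.84 CPM. GCOM1 is a readthrough locus whose counts may be divided with the genes it joins. The fitted log2 fold changes of the 5 genes lay between -3.28 and -2.29, and the likeness rests on 6 libraries in 2 groups.

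Among annotated genes starting within 500 kb of DHRS9, 4 others passed the filter, and they moved in both directions. ABCB11, the bile salt export pump, was the nearest, on the minus strand with its start at -35.7 kb from that of DHRS9, and fell from 1.19 to 0.57 CPM (log2 fold change -1.03, SE 0.24; adjusted p = 0.0037). SPC25, a kinetochore subunit, fell from 16.4 to 12.4 CPM (-0.41, SE 0.07; adjusted p = 0.00052). BBS5, a component of the ciliary BBSome, rose from 19.8 to 23.2 CPM (0.23, SE 0.07; adjusted p = 0.019), and NOSTRIN was at 0.46 and 0.49 CPM (adjusted p = 0.78). The BBS5 call was lost with total counts (adjusted p = 0.055), without shLuc library 2 (0.062) or 3 (0.072) and without shWDR5 library 1 (0.057).

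RDH10, the retinol dehydrogenase that supplies most retinaldehyde in the embryo, was measured at 59.0, 71.3 and 61.9 CPM in shLuc and at 55.9, 64.2 and 64.1 CPM in shWDR5. The groups overlapped. The log2 fold change was -0.06 with a 95% interval of -0.25 to 0.12 (adjusted p = 0.56), and its sign turned when shLuc library 2 or shWDR5 library 1 was left out.

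Per kilobase, DHRS9 made up 28.7, 23.9 and 29.3% of the summed DHRS9 and RDH10 RPKM in shLuc and 5.86, 8.37 and 4.34% in shWDR5. The sum of both enzymes was 22.2 ± 1.39 RPKM in shLuc and 16.5 ± 1.39 RPKM in shWDR5 (SD, n = 3).

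DHRS3 (chromosome 1, hg19, 12627939 to 12677737, minus strand), which reduces retinaldehyde back to retinol, was measured at 89.3, 89.1 and 89.1 CPM in shLuc and rose to 128.6, 121.8 and 121.0 CPM in shWDR5. The 3 control libraries were nearly equal, and all 3 silenced libraries lay above them. The log2 fold change was 0.47 (SE 0.05; adjusted p = 2.92e-05), so the reductase rose while DHRS9 was lower and RDH10 did not pass the test.

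ALDH1A3 (chromosome 15, 101419897 to 101456830, plus strand) was the most abundant of the 10 genes per kilobase. It was measured at 1538, 1670 and 1698 CPM in shLuc and at 1238, 1319 and 1313 CPM in shWDR5, a fall of 21.1% (log2 fold change -0.34, SE 0.06; adjusted p = 0.00046). The groups did not overlap, and the level remained above that of 99.2% of tested genes per kilobase, taken over all 6 libraries.

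ALDH1A1 (chromosome 9, 75515578 to 75568233, minus strand), the family member widely used as a marker of stem-like breast cells, went the other way from a low level. It had 35, 36 and 30 counts in shLuc (0.71, 0.93 and 0.74 CPM) and 112, 161 and 120 counts in shWDR5 (2.42, 2.83 and 2.65 CPM). The rise was 3.32-fold (log2 fold change 1.74, SE 0.15; adjusted p = 5.78e-06). Its RPKM was 0.074% of the ALDH1A1 and ALDH1A3 sum in shLuc and 0.31% in shWDR5, and the sum went from 454 ± 23.7 to 359 ± 12.6 RPKM (SD, n = 3).

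The third retinaldehyde dehydrogenase, ALDH1A2, is not a member and is named here after its values were seen. It had 0 counts in all 3 shLuc libraries and 13, 10 and 7 counts in shWDR5, and did not pass the filter. Against a floor of 3 counts over the shLuc group its shWDR5 mean was 8.73-fold higher. That floor covers counting error in shLuc only, and the error of the few shWDR5 counts is not included.

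CRABP2 (chromosome 1, 156669400 to 156675608, minus strand), the carrier of retinoic acid to its receptors, was measured at 12.5, 10.9 and 13.1 CPM in shLuc and at 3.97, 3.66 and 3.29 CPM in shWDR5. It was 70.1% lower, with both groups tight and far apart (log2 fold change -1.74, SE 0.10; adjusted p = 5.38e-07). After DHRS9 this was the largest fall among the 9 genes tested.

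RARA (chromosome 17, 38465423 to 38513895, plus strand) was measured at 23.3, 23.4 and 22.3 CPM in shLuc and at 43.0, 38.2 and 40.9 CPM in shWDR5. It rose 1.77-fold (log2 fold change 0.82, SE 0.07; adjusted p = 3.81e-06). Its exons share 672 bases with those of RARA-AS1 on the other strand, and without a stated strand setting reads there cannot be assigned to one of them; RARA-AS1 itself averaged 1.46 CPM.

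RARG (chromosome 12, 53604350 to 53626040, minus strand), the main receptor of epidermal keratinocytes, moved opposite to RARA. It was measured at 92.5, 87.9 and 81.2 CPM in shLuc and at 70.1, 65.2 and 63.2 CPM in shWDR5, a fall of 24.1% (log2 fold change -0.40, SE 0.07; adjusted p = 0.00051). The groups did not overlap.

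RARB (chromosome 3, 25215823 to 25639422, plus strand), whose DR5-bearing window is printed above, was close to the limit of counting, with 6, 3 and 5 counts in shLuc and 7, 11 and 7 counts in shWDR5. At 0.11 and 0.17 CPM on average it was left out of the fit. The 2 groups did not overlap, but an exact two-sided permutation test gave p = 0.1, the smallest that 3 against 3 allows. Fitted without the filter, its log2 fold change was 0.60 (SE 0.48; adjusted p = 0.35), so a difference was not detectable at this depth. A stretch of 27 exonic bases is shared with TOP2B on the other strand, which averaged 186 CPM.

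The make-up of the receptor RNA differed more than its sum. RARA made up 16.5, 17.3 and 17.7% of summed RAR RPKM in shLuc and 32.5, 31.5 and 33.7% in shWDR5, and RARG went from 82.7 ± 0.61% to 67.3 ± 1.08% (SD, n = 3). The 2 groups did not overlap in either share (exact two-sided permutation p = 0.1, the smallest possible with 3 against 3). The summed RPKM was 30.7 ± 1.78 in shLuc and 28.7 ± 1.44 in shWDR5, with overlapping groups (exact permutation p = 0.2).

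**Figure D1:**
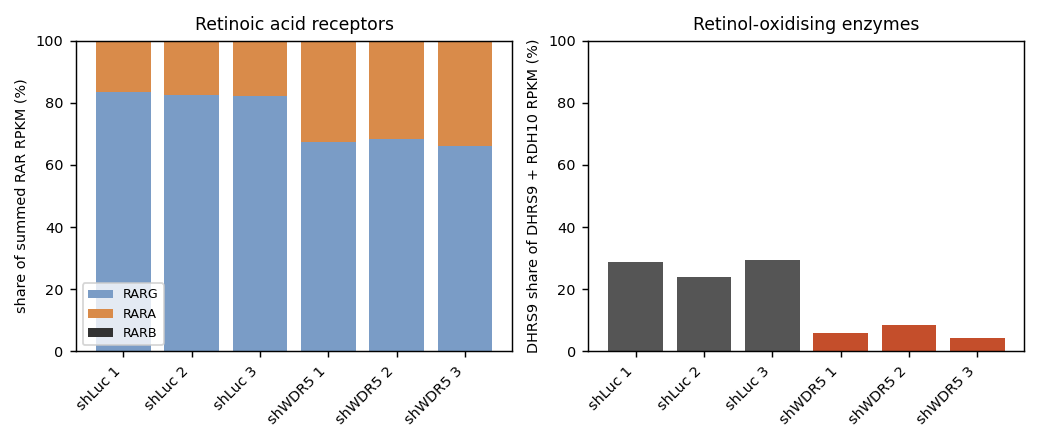
Left, shares of RARG, RARA and RARB in their summed RPKM in each of the 6 libraries, in percent; right, the share of DHRS9 in the summed RPKM of DHRS9 and RDH10. The RARA share lies at 16.5 to 17.7% in shLuc and 31.5 to 33.7% in shWDR5, RARB is too low to see, and the DHRS9 share at 23.9 to 29.3% in shLuc and 4.34 to 8.37% in shWDR5.

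CYP26B1 (chromosome 2, 72356367 to 72374991, minus strand), which breaks retinoic acid down, was measured at 21.2, 21.0 and 18.6 CPM in shLuc and at 16.3, 14.4 and 15.9 CPM in shWDR5. It fell by 23.6% (log2 fold change -0.39, SE 0.08; adjusted p = 0.0020) and the groups did not overlap. The other retinoic acid hydroxylases of the fixed list could not be tested: CYP26A1 had 2 to 7 counts a library, CYP26C1 0 to 3 and CYP2S1 0 to 3.

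**Figure D2:**
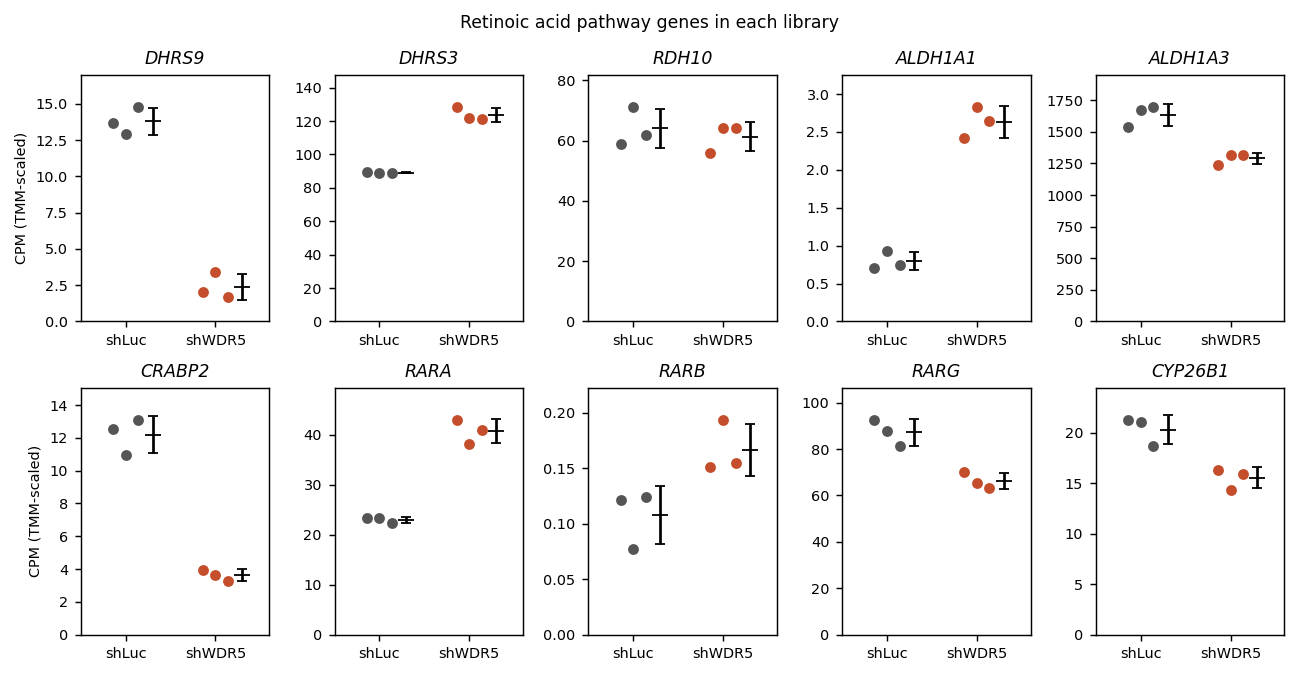
TMM-scaled CPM of the 10 genes in each library (points; each panel has its own axis from 0), with the mean and SD of the 3 libraries of a group beside them. The shLuc and shWDR5 points overlap only for RDH10, and DHRS9 goes from 13.8 to 2.35 CPM on average.

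Without DHRS9, 8 members entered the fit, of which 4 were called lower (ALDH1A3, CRABP2, RARG and CYP26B1), 3 higher (DHRS3, ALDH1A1 and RARA) and 1 was not called, with a call set at an adjusted p under 0.05. Over all 16117 genes, 56.5% were called, 29.9% lower and 26.6% higher, and in 62.3% the groups did not overlap, as in 7 of these 8 members. With 56.5% of all genes called, the number of calls among members says little about the pathway. The median log2 fold change of the 8 members was -0.20 and that of all genes -0.01.

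**Figure D3:**
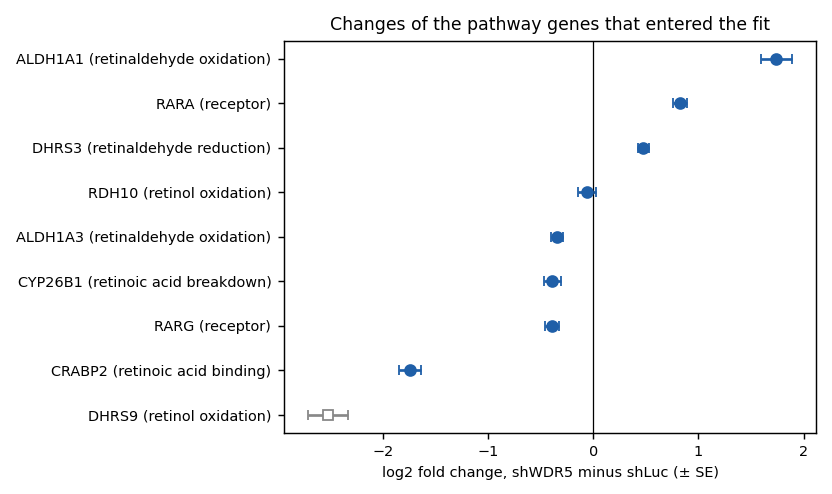
Fitted log2 fold changes (shWDR5 minus shLuc, bars ± SE, 3 libraries a group) of the 9 pathway genes that entered the fit, ordered from highest to lowest. DHRS9, the open grey square at -2.52, was chosen for its fall; ALDH1A1 at 1.74 and CRABP2 at -1.74 lie at equal distance on either side of 0.

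Per kilobase the order of the 10 genes in shLuc was ALDH1A3 (453 RPKM), DHRS3 (51.7), RARG (25.4), RDH10 (16.2), CRABP2 (10.5), DHRS9 (6.04), RARA (5.28), CYP26B1 (4.46), ALDH1A1 (0.33) and RARB (0.030), and no neighbours in that order overlapped between libraries. In shWDR5 the first 4 places were the same (358, 71.8, 19.3 and 15.5 RPKM). RARA followed at 9.34 RPKM, then CYP26B1 at 3.41, CRABP2 at 3.13, ALDH1A1 at 1.11, DHRS9 at 1.03 and RARB at 0.047. There CYP26B1 and CRABP2 overlapped, as did ALDH1A1 and DHRS9. DHRS9 thus went from place 6 to place 9 of the 10 genes, and RARA from place 7 to place 5.

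Other enzymes that oxidise or reduce retinoids moved in both directions. Of 27 genes listed, 17 were tested, 5 were called lower, 4 higher and 8 neither, with a median log2 fold change of -0.03. Over all genes tested, 29.9% were called lower and 26.6% higher, and the median was -0.01. ALDH8A1, first described as acting on 9-cis-retinaldehyde, rose from 0.56 to 1.54 CPM (1.46, SE 0.16; adjusted p = 2.54e-05), and ADH5, a broadly expressed class III alcohol dehydrogenase, rose from 105 to 140 CPM (0.42, SE 0.06; adjusted p = 0.00017). RDH13 fell from 29.5 to 17.5 CPM (-0.75, SE 0.09; adjusted p = 4.19e-05) and DHRS11 from 14.6 to 9.79 CPM (-0.58, SE 0.08; adjusted p = 0.0002). RDH11, the most abundant of those not called, was at 185 and 181 CPM, DHRS1 at 20.8 and 19.4 CPM and SDR16C5 at 4.85 and 4.16 CPM. The other 10 genes of the list did not pass the filter.

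In uptake, binding and storage, 7 of 13 listed genes were tested, 1 was called lower, 3 higher and 3 neither. The shares over all genes were 29.9% lower and 26.6% higher. RBP5, a cellular retinol-binding protein, rose from 4.01 to 7.71 CPM (0.93, SE 0.10; adjusted p = 1.8e-05). FABP5, which can carry retinoic acid to PPARD, rose from 54.2 to 65.2 CPM (0.27, SE 0.06; adjusted p = 0.0029), and STRA6, the cell-surface retinol transporter, from 4.42 to 5.36 CPM (0.27, SE 0.10; adjusted p = 0.036). The STRA6 call was lost in 6 of 12 alternatives, with total counts (adjusted p = 0.079), with DESeq2 (0.095), without shLuc library 2 (0.091) or 3 (0.12) and without shWDR5 library 1 (0.10) or 3 (0.080). DGAT1 fell from 27.5 to 21.5 CPM (-0.36, SE 0.06; adjusted p = 0.00071). LRAT, which esterifies retinol for storage, was high in both groups at 81.3 and 85.8 CPM (adjusted p = 0.61), and PNPLA4 was at 14.4 and 14.6 CPM. CRABP1, the other retinoic acid carrier, named after its values were seen, was not detected beyond 1 count in any library.

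Among 15 receptor partners and co-regulators, 14 were tested, 5 were called lower, 5 higher and 4 neither. Over all genes, 29.9% were called lower and 26.6% higher. PPARD, a nuclear receptor that FABP5 can supply, fell from 58.9 to 28.1 CPM (-1.07, SE 0.08; adjusted p = 2.33e-06), and MED1, a Mediator subunit that contacts nuclear receptors, from 110 to 82.0 CPM (-0.43, SE 0.05; adjusted p = 7.94e-05). The RXR partners were not called, with RXRA at 117 and 124 CPM and RXRB at 45.6 and 47.2 CPM; NCOA1 was at 28.0 and 27.5 CPM.

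Of 30 genes known to respond to retinoic acid in one tissue or another, 25 were tested, 3 were called lower, 11 higher and 11 neither, and the median log2 fold change was 0.11. Over all genes tested, 29.9% were called lower and 26.6% higher, with a median of -0.01. The list was not tested as a set, and its counts give no direction of retinoid activity. The most clearly higher were IGFBP3, an IGF-binding protein, from 250 to 691 CPM (1.46, SE 0.05; adjusted p = 3.89e-08), ICAM1, an adhesion molecule also induced by inflammatory cytokines, from 296 to 674 CPM (1.19, SE 0.06; adjusted p = 2.31e-07), BTG2, an antiproliferative gene also induced by p53, from 47.0 to 99.6 CPM (1.08, SE 0.07; adjusted p = 6.59e-07), and the simple-epithelial keratin KRT19 from 1.31 to 4.68 CPM (1.83, SE 0.12; adjusted p = 8.24e-07). The 3 lower genes, named after their values were seen, were TGM2, a transglutaminase classically induced by retinoic acid, from 931 to 416 CPM (-1.16, SE 0.07; adjusted p = 8.67e-07), RARRES3 from 1.82 to 1.13 CPM (adjusted p = 0.0082) and HOXB2 from 6.43 to 5.37 CPM (adjusted p = 0.032). The HOXB2 call was lost in 6 of 12 alternatives, with DESeq2 (adjusted p = 0.12), without shLuc library 1 (0.075), 2 (0.085) or 3 (0.064) and without shWDR5 library 1 (0.10) or 3 (0.088). RARRES1 was at 129 and 139 CPM, RAI14 at 90.2 and 90.7 CPM, and LRAT, also on this list, as given above. Several of these genes, STRA6, NRIP1 and CYP26A1 among them, also stand on another list here, and most of these genes answer to other signals too.

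Of 10 genes listed for keratinocyte differentiation, 7 were tested, 2 were called lower, 3 higher and 2 neither, against 29.9% lower and 26.6% higher over all genes. These genes were listed as ones that retinoids restrain in epidermis. That was not tested here and need not hold for KRT4 and KRT13, so the counts give no direction of retinoid activity. FLG, the filaggrin gene, had 3, 2 and 0 counts in shLuc and 49, 51 and 50 counts in shWDR5. It passed the low-count filter only through the shWDR5 libraries, so no p is given for it, though it is among the 3 called higher. KRT4 rose from 0.51 to 1.19 CPM (1.27, SE 0.23; adjusted p = 0.0009). IVL, involucrin, fell from 25.7 to 18.4 CPM (-0.48, SE 0.11; adjusted p = 0.0028) and SPRR1B from 35.2 to 25.4 CPM (-0.47, SE 0.11; adjusted p = 0.0034). KRT10 was at 12.2 and 14.1 CPM and KRT13 at 1.22 and 0.97 CPM.

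**Figure D4:**
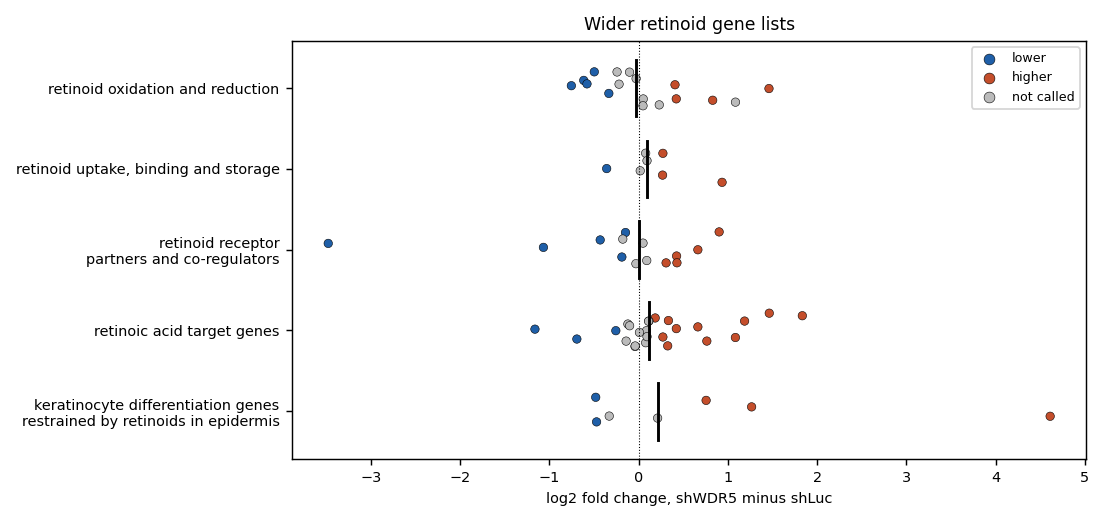
Fitted log2 fold changes of the tested genes in 5 retinoid lists; each point is a gene, coloured by its call at an adjusted p under 0.05 with vertical jitter, and the black bar is the list median. Medians lie between -0.03 and 0.21 with calls on both sides of 0. The FLG point on the far right rests on 0 to 3 shLuc counts and depends on the prior count of the fit. The label of the last list, restrained by retinoids in epidermis, was not tested and need not hold for KRT4 and KRT13.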

How the data were processed

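RNA was sequenced from 6 libraries of MCF10DCIS.com cells, 3 shLuc and 3 shWDR5, made with a poly-A TruSeq protocol, per the labels. The deposited counts are unnormalised reads per gene; the submitters' processing notes name TopHat2 2.1.0, featureCounts and edgeR 3.2.2 with builds hg19 and GRCh37. Strand setting and annotation release are not given in the sources used here. A second deposited table holds the authors' own fold changes, p-values and FDR and was not used.

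Genes were filtered with filterByExpr (minimum count 10, total 15), scaled by TMM and tested with the quasi-likelihood F test of edgeR 4.0.16 (R 4.3.3) without covariates, with Benjamini-Hochberg adjustment over all 16117 genes and a call at an adjusted p under 0.05. SE is the absolute log2 fold change divided by the square root of F. RPKM used the deposited gene length. Likeness to DHRS9 was the Euclidean distance over centred log2 CPM with a prior count of 2. Promoter windows came from RefSeq on GRCh38.p14. The procedure was tested on simulated data.

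The members and gene lists were chosen with earlier results of these data known; the lists were written from textbook roles. Named were all members, WDR5, up to 4 called genes of each list by smallest adjusted p and up to 3 others by highest CPM, the 5 genes nearest to DHRS9 in pattern, and tested genes within 500 kb of it; in marker lists only single examples and genes at or near 0 are named, and some listed genes are counted but not reported here. Alternatives were DESeq2 1.42.0 and its size factors, total-count scaling, no filter, a replicate block, leaving out each library, a prior count of 2, and the thresholds stated by the study. The floor used for ALDH1A2 covers counting error in shLuc only.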

Additional observations from a re-analysis of the deposited data

How the results depend on the processing

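For the fitted members other than DHRS9 and RDH10 the direction held under all 12 alternatives of scaling, filter, tool, block, prior count or left-out library. These 7 called members were called in each. DHRS9, which was chosen for its fall in these libraries, ranged from -2.90 (without shWDR5 library 2) to -2.34 (without shWDR5 library 3) on the log2 scale. That range is a description only. RDH10, never called, turned to 0.013 without shLuc library 2 and to 0.0022 without shWDR5 library 1, with -0.10 as the lowest value on leaving out a library. The prior count of 2 alters the fold change but not the p-value. It could not change a call, yet it stands among the 12 alternatives wherever lost or kept calls are counted. Among the other called genes named, the calls of STRA6, HOXB2 and BBS5 were lost in some alternatives, as given above. The causes were not tested.

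The thresholds stated by the study were an adjusted p under 0.05, an absolute log2 fold change of at least 0.6 and expression over 0.5 RPKM. Expression was taken here as the mean RPKM over all 6 libraries, a choice the study does not state. Under these thresholds 1623 genes were called lower and 1143 higher, against 4821 and 4291. Members other than DHRS9 went from 4 to 1 lower, CRABP2, and from 3 to 2 higher, ALDH1A1 and RARA. ALDH1A1 averaged 0.33 RPKM in shLuc and 1.11 RPKM in shWDR5, so its call depends on how expression is taken. DHRS3, at 0.47, lost its call. By construction this rule calls fewer genes. It called 1 lower and 1 higher in oxidation and reduction, 0 and 1 in uptake, binding and storage, and 2 and 2 among receptor partners. Among retinoic acid targets it called 2 lower and 6 higher, and among keratinocyte genes 0 and 1. Of the markers listed for basal epithelium 1 was called lower, CDH1, and 5 higher. It called 0 lower among luminal markers and 0 lower among fibroblast markers.

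Without the low-count filter 1 leukocyte marker was called higher. With the replicate number as a block, 5511 genes were called lower and 4901 higher, and 2 fibroblast markers lower in place of 1; leaving out a library gave 1 to 2. Same-numbered libraries 1, 2 and 3 correlated at 0.37, 0.036 and 0.12 in their deviations from the group means. Differently numbered libraries correlated at -0.31 to 0.21, so the libraries numbered 1 were the most alike. Whether equal numbers mark shared handling is not given, and it was not tested. No call of a member changed under the block. Scaling by total counts moved the median log2 fold change of all genes to -0.07. Depth limits RARB and the genes below the filter.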
